A study of Mus musculus with 34 samples.

Results

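BRD4884, an inhibitor of class I histone deacetylases with HDAC1 and HDAC2 among its targets, was given to N2A cells, a mouse neuroblastoma line, at 10 µM for 24 h in 0.4% DMSO. The comparison took 5 of the 34 polyA+ RNA-seq libraries of a screen for small molecules that change microexon splicing, chosen by treatment label as BRD4884 A and B against DMSO A, B and C, where DMSO is the vehicle alone at the same 0.4%. Splicing was compared library by library. Gene expression was compared as 1 merged RPKM value per condition, and as junction reads in each library. BRD6688, a second CI-994 derivative given at the same 10 µM for 24 h, had 2 libraries and is compared with BRD4884 at the end. There were 3 libraries labelled DMSO, and all 3 were used, whereas the study states 2 biological replicates for its DMSO controls. The methods of the study call the libraries of a compound biological replicates, but the labels do not say whether replicates came from separate cultures, so the p-values measure the spread between these libraries, which may be technical.

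Histone deacetylases remove acetyl groups from lysines of histones and other proteins, and HDAC1 and HDAC2 do so as the catalytic subunits of the Sin3, NuRD and CoREST corepressor complexes. Inhibitors of these enzymes raise histone acetylation, switch on many genes that are silent in the cell and typically slow proliferation. Microexons are very short exons, taken here as 27 nt or less. Many are included in neurons and skipped elsewhere, keep the reading frame and add a few residues to proteins of synapses, vesicles and the cytoskeleton. The splicing activators SRRM4 and SRRM3 promote the inclusion of many neural microexons, though not of all. The inclusion of an exon is given as PSI, the percentage of transcripts spliced to contain it.

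Exon events held 47096272 and 49531144 reads in BRD4884 A and B, and between 37427027 (C) and 75978445 (A) in the DMSO libraries. Neuroblastoma markers were present: 11 of 12 (all but Th, at 1.57 RPKM in DMSO) were above 5 RPKM in both conditions, with a summed level of 1157.2 RPKM in DMSO and 1208.7 RPKM with BRD4884. Summed markers of astrocytes, oligodendrocytes, microglia, endothelium and epithelium were at most 3.21 RPKM in DMSO and 4.01 RPKM with BRD4884. The 4 fibroblast markers went from 0.53 to 13.1 RPKM in sum, of which Pdgfra had 9.12 RPKM, while the defining markers Epcam, Gfap and Cdh5 of other types had at most 1.31 RPKM. In these bulk libraries, fewer cells of a type and less RNA per cell cannot be told apart.

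The microexons with the largest gains that also passed the test across libraries are shown with their sequences, so that the few bases at stake can be seen. Capitals mark the microexon and lower case the 10 nt of the neighbouring exons on each side, 5′ to 3′ on the transcribed strand. The sequences were read from GENCODE vM21 transcripts with the same exon and intron lengths, and coordinates are those of mm9, the build of the splicing table. Of the 53 microexons called changed, 45 could be matched in this way and 44 of these lay in coding sequence. No matching transcript was found for the 9-nt exon of Ppfia2 (chr10:106319792-106319800).
Snx14, chr9:88295561-88295587, minus strand: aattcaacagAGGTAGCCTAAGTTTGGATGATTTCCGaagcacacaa
L1cam, chrX:71100991-71101002, minus strand: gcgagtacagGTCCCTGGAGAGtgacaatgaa
Slit2, chr5:48612206-48612229, plus strand: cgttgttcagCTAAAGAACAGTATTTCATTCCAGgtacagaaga
Agrn, chr4:155543655-155543666, minus strand: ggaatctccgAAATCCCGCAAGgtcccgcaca
Pacsin2, chr15:83214053-83214058, minus strand: acagtttgagGATGAAgagtggtctg
Mink1, chr11:70422910-70422933, plus strand: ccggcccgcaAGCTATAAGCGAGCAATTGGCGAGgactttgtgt
Eif4g1, chr16:20674859-20674879, plus strand: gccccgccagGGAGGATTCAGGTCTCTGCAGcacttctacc
Dctn1, chr6:83147313-83147327, plus strand: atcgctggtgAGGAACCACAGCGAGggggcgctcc
Spna2, chr2:29869678-29869692, plus strand: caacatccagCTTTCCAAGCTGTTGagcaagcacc
Picalm, chr7:97342783-97342806, plus strand: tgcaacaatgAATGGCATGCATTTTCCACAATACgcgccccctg
Mon2, chr10:122460142-122460144, minus strand: tctacttgagAAGgtctgccagc

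With BRD4884, 48 of 628 detected microexons rose (7.64%) and 5 fell (0.796%). These calls needed a difference of at least 10 PSI between group means and a posterior probability above 0.95, which is computed from the reads of each library. Among cassette exons longer than 27 nt, 335 of 58652 rose (0.571%) and 115 fell (0.196%). Of the cassette exons, 54027 were above 90 PSI in DMSO, where a rise of 10 PSI is not possible. Among exons that were between 10 and 90 PSI in DMSO, 44 of 163 microexons rose (27%) and 5 fell (3.07%), against 313 (10.8%) and 68 (2.35%) of 2893 cassette exons. The median difference of these intermediate exons was 7.46 PSI for microexons and 2.46 PSI for cassette exons. A test of the spread between libraries, limma on the log2 odds of inclusion over 41118 events of all classes, passed 101 events that rose (0.246%) and 18 that fell (0.0438%) by at least 10 PSI at a Benjamini-Hochberg adjusted p under the threshold of 0.05. Whatever their size, 202 events passed the adjusted p (0.491%) and 3164 had an unadjusted p under 0.05 (7.69%). These held 20 of the 48 microexons that rose and none of the 5 that fell. Of all 555 microexons measured in each of the 5 libraries, both BRD4884 values lay above all 3 DMSO values in 128 (23.1%) and below them in 28 (5.05%). The same shares were 5.8% above and 3.01% below for cassette exons and 5.78% above and 4.45% below for introns. Most cassette exons were above 90 PSI in DMSO and most introns below 10 PSI, so these shares are not like for like. Between 10 and 90 PSI in DMSO, the groups were separated in either direction in 93 of 141 microexons, 1065 of 2467 cassette exons and 350 of 1077 introns.

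The named microexons are described by the role of their protein, an order that was not tested for enrichment, and begin with axon growth and cell adhesion. The microexon of L1cam, an adhesion molecule of growing axons, had 42.55, 41.44 and 38.1 PSI in DMSO A, B and C and 67.23 and 63.38 PSI in BRD4884 A and B. Both BRD4884 libraries were above all DMSO libraries, with a log2 odds difference of 1.46 ± 0.16 (SE, limma adjusted p = 2.8e-05). In Slit2, a secreted axon guidance ligand, inclusion was 25.27, 21.29 and 25.82 PSI in DMSO and 46.37 and 49.49 PSI with BRD4884 (1.53 ± 0.16, limma adjusted p = 1.8e-05). Agrn encodes agrin, which clusters acetylcholine receptors at the neuromuscular junction. Its 12-nt exon was at 18.44, 20 and 23.91 PSI in DMSO and at 42.31 and 44.48 PSI with BRD4884 (limma adjusted p = 0.00213), again without overlap, although the call was lost when BRD4884 B was left out. The largest difference was in Ppfia2, a scaffold protein of the presynaptic active zone, with 15.01, 21.55 and 15.85 PSI in DMSO and 60.8 and 52.58 PSI with BRD4884. Ppfia2 had between 57 and 99 reads per library, and its adjusted p of 0.02856 (limma) did not hold when any 1 of the 5 libraries was left out.

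Among proteins of membrane traffic, Picalm, which recruits clathrin to membranes, had 30.51, 34.6 and 33.57 PSI in DMSO and 52.71 and 50.78 PSI with BRD4884 (1.13 ± 0.1, limma adjusted p = 4e-06). Pacsin2, a membrane-bending protein of endocytosis, had 37.5, 34.6 and 40.5 PSI in DMSO and 58.39 and 61.74 PSI with BRD4884 (1.33 ± 0.14, limma adjusted p = 1.8e-05). In both genes the groups were separated by more than the range within either group. The sorting nexin Snx14 was at 51.65, 46.86 and 42.38 PSI in DMSO and 74.34 and 76.73 PSI with BRD4884 (1.8 ± 0.24, limma adjusted p = 0.000611). Mon2, a regulator of Golgi to endosome traffic with a microexon of 3 nt, had 30.54, 32.82 and 28.72 PSI in DMSO and 47.43 and 50.71 PSI with BRD4884 (limma adjusted p = 0.004935), a call lost without BRD4884 B. The groups overlapped in neither gene.

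Among proteins of the cytoskeleton and of translation, Spna2 encodes spectrin alpha II, a part of the membrane skeleton, and its 15-nt exon was at 68.33, 69.33 and 66.08 PSI in DMSO and at 88.13 and 88.88 PSI with BRD4884 (1.86 ± 0.16, limma adjusted p = 4e-06). The 15-nt exon of Dctn1, the large subunit of the dynein partner dynactin, was at 68.14, 62.23 and 65.32 PSI in DMSO and at 86.42 and 85.4 PSI with BRD4884 (1.69 ± 0.25, limma adjusted p = 0.002028). In Eif4g1, the scaffold of translation initiation, inclusion was 47.34, 47.54 and 50.21 PSI in DMSO and 69.04 and 71.04 PSI with BRD4884 (1.32 ± 0.12, limma adjusted p = 4e-06). The difference of about 21 PSI in each of these genes was several times the range between libraries of a group. Mink1, a kinase of the STE20 family, had 72.94, 67.13 and 62.05 PSI in DMSO and 88.17 and 90.98 PSI with BRD4884. Its limma adjusted p of 0.01433 did not hold without DMSO B, without DMSO C or without either BRD4884 library. The other microexons that passed both criteria were in Lphn2, Mef2a, Tmem184b, Dlg1, Sh3glb1, Sbf1, Eprs and Dock4, with differences between 10.69 PSI (Dock4) and 17.62 PSI (Lphn2).

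**Figure D1:**
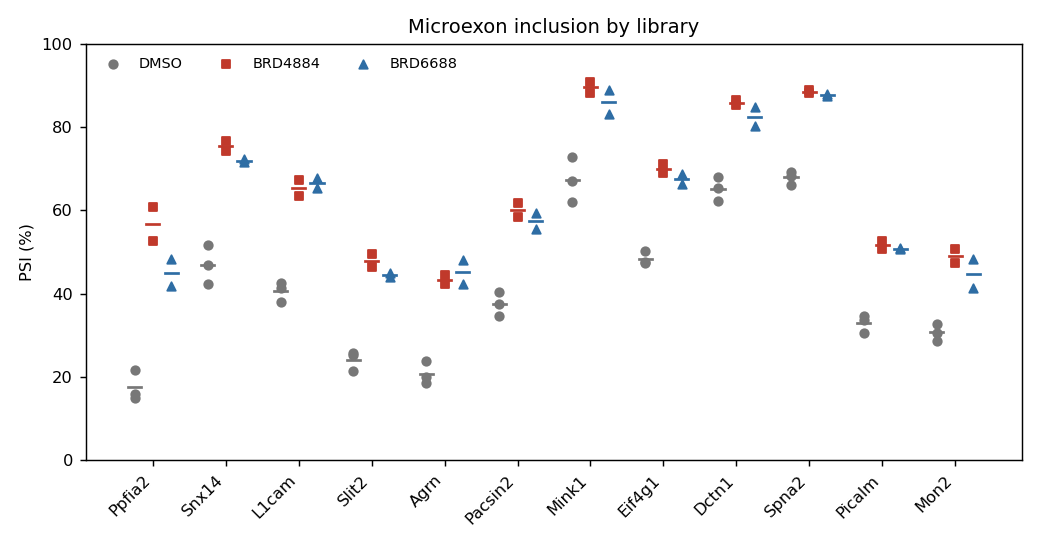
PSI (percent, vertical axis) of the 12 named microexons in each DMSO, BRD4884 and BRD6688 library, with 1 point per library and a bar at the group mean. The exons were named for groups that do not overlap, so the plot shows the size of the gap, for example 88.13 and 88.88 against at most 69.33 for Spna2.

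The microexons that rose started at a median of 33 PSI in DMSO (quartiles 17.4 and 47.3), 4 of them below 10 PSI, and a rise of 10 PSI is not possible from above 90 PSI. The share called higher was 31.5% of the 54 microexons between 10 and 30 PSI in DMSO and 54.5% of the 33 between 30 and 50 PSI, against 1.68% of the 238 below 10 PSI. No microexon above 90 PSI in DMSO was called lower, among 227 detected. In length the gains were spread over the class. From 3 to 9 nt 7 of 164 rose, from 10 to 15 nt 13 of 153, from 16 to 21 nt 12 of 111 and from 22 to 27 nt 16 of 200. A length divisible by 3, which keeps the reading frame, was found in 46 of the 48 that rose (95.8%), in 74.4% of all detected microexons and in 91.4% of those with an intermediate PSI in DMSO. Among the cassette exons that rose 61.2% were divisible by 3, against 51.5% of intermediate cassette exons. The genes that hold the 48 microexons had a median log2 difference in junction reads of 0.32, beside 0.15 over all genes tested. Of these 48 genes 3 rose by over 2-fold, beside 16.4% of all genes tested. A called microexon needs reads in DMSO, whereas all genes tested include some that were near silent there. The 2 sets are therefore not like for like.

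**Figure D2:**
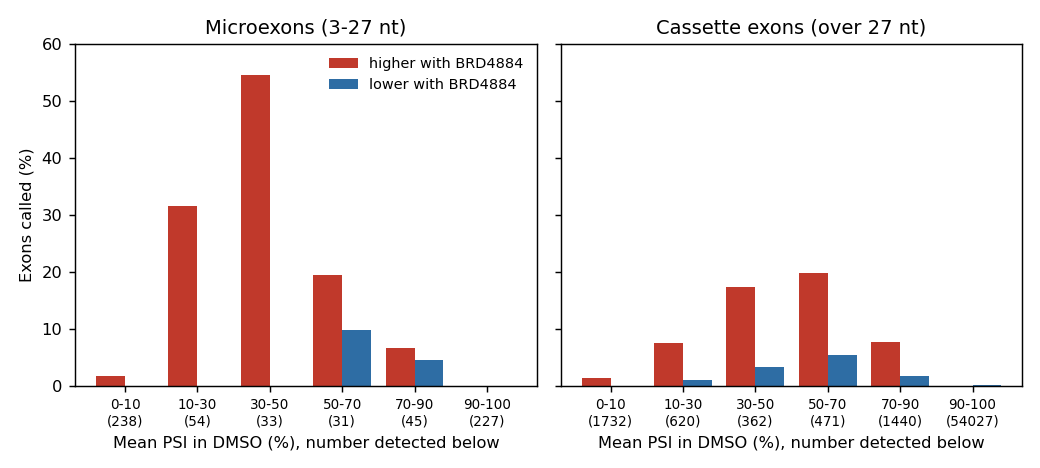
Percent of detected exons called higher or lower with BRD4884 (vertical axis) by their mean PSI in DMSO (horizontal axis, number of exons in brackets), for microexons and for longer cassette exons. Microexons between 30 and 50 PSI have the highest bar at 54.5%, where 18 of 33 were called higher.

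Lists of genes with known neural microexons are described beside all detected microexons, of which 7.64% rose. Of 39 microexons in cytoskeletal and small GTPase genes, 6 rose and none fell, with a median difference of 2.26 PSI beside 0.20 PSI over all 628. Vesicle and endocytic genes had 22 microexons, of which 4 rose and 1 fell. Adhesion and axon guidance genes had 16, of which 3 rose (L1cam, Lphn2 and Ppfia2). In transcription and chromatin genes 1 of 10 rose, in the transcription factor Mef2a, and in translation genes 2 of 6 rose, in Eif4g1 and Pus7. The study followed its hits by RT-PCR in a panel of 7 genes. Of the 5 microexons detected in these genes, 2 met the posterior rule, in Ergic3 and Mast2, and none passed limma. Ergic3, a protein of the early secretory pathway, had 33.86, 39.75 and 42.01 PSI in DMSO and 54.29 and 57.01 PSI with BRD4884 (limma adjusted p = 0.05693). Mef2d, the transcription factor whose 21-nt microexon drives the reporter of the screen, had 89.54, 88.72 and 88.68 PSI in DMSO and 96.37 and 96.1 PSI with BRD4884. The adjusted p of Mef2d was 0.09151 (limma), and in both genes the groups did not overlap. The kinase gene Mast2 had 47.05, 48.87 and 33.34 PSI in DMSO and 61.77 and 56.76 PSI with BRD4884, with a wide DMSO range and a limma adjusted p of 0.381. Trappc9, a subunit of a vesicle tethering complex, had 29.73, 31.61 and 33.24 PSI in DMSO and 43.18 and 36.58 PSI with BRD4884 (limma adjusted p = 0.6126), a difference of 8.35 PSI that was not called. A 27-nt exon of Zdhhc20, other than the 36-nt exon described with the cassette exons, differed by -1.01 PSI.

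None of the 5 microexons called lower passed limma. The largest fall was in Cacna1b, the pore subunit of the N-type calcium channel, where a 6-nt exon had 89.58, 92.75 and 85.79 PSI in DMSO and 80.77 and 64.15 PSI with BRD4884. The BRD4884 libraries differed from each other more than BRD4884 A did from DMSO, and the limma adjusted p was 0.2463. Dnm2, the dynamin that cuts vesicles from the membrane, was more even, with 87.81, 86.19 and 89.21 PSI in DMSO and 77.14 and 75.35 PSI with BRD4884 (limma adjusted p = 0.06618). The calls in Gon4l and 5830417I10Rik concern an exon and flanks of identical sequence, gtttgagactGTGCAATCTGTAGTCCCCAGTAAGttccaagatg, so reads may be shared and they are uncertain as separate events. Gon4l had 59.45, 57.52 and 52.99 PSI in DMSO and 45.12 and 41.42 PSI with BRD4884.

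Some cassette exons rose by over 30 PSI. The 39-nt exon of Spag9, a scaffold of the JNK pathway and of motor proteins, had 33.54, 35.69 and 36.38 PSI in DMSO and 76.31 and 77.57 PSI with BRD4884, a log2 odds difference of 2.62 ± 0.18. Syne2 encodes nesprin-2, which ties the nucleus to the cytoskeleton, and its 69-nt exon was at 48.98, 50.33 and 55.29 PSI in DMSO and 88.1 and 85.51 PSI with BRD4884 (limma adjusted p = 0.000279). In both genes the libraries of a group lay within 7 PSI of each other. The 36-nt exon of Zdhhc20, a palmitoyltransferase, had 28.96, 41.41 and 31.3 PSI in DMSO and 67.27 and 52.2 PSI with BRD4884. Its limma adjusted p of 0.02773 was lost without DMSO A, without DMSO C or without BRD4884 A. Pcyt2, an enzyme of phosphatidylethanolamine synthesis, had 36.53, 28.85 and 33.71 PSI in DMSO and 72.92 and 73.72 PSI with BRD4884, and its limma adjusted p of 0.02524 was lost without any 1 library. Mink1 gained a further exon of 111 nt, upstream of its microexon, from 42.8, 56.84 and 38.46 PSI in DMSO to 75.76 and 73.58 PSI, with a limma adjusted p of 0.02247 that was lost without DMSO A, without DMSO C or without either BRD4884 library. The exons of Spag9 and Zdhhc20 are both shorter than 40 nt.
Spag9, chr11:93974577-93974615, plus strand: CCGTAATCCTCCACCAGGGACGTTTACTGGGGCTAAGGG
Zdhhc20, chr14:58468982-58469017, minus strand: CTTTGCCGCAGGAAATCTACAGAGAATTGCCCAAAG

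In 3 genes, neighbouring exons moved in opposite directions. Cask, a scaffold of the presynaptic membrane, lost a 69-nt exon, from 75.44, 73.86 and 77.49 PSI in DMSO to 54.89 and 56.27 PSI (limma adjusted p = 0.002311, lost without BRD4884 A), and gained the next exon of 36 nt, from 60.75, 61.22 and 63.01 PSI to 78.76 and 81.92 PSI (limma adjusted p = 0.003208). Tpm1 encodes tropomyosin, an actin-binding coiled coil built with a choice between alternative internal exons. Of 2 exons of 76 nt, the upstream one went from 48.42, 44.68 and 49.44 PSI in DMSO to 31.31 and 37.4 PSI (limma adjusted p = 0.008181, lost without DMSO C or BRD4884 A), and the downstream one from 48.23, 54.4 and 48.7 PSI to 69.25 and 61.23 PSI (limma adjusted p = 0.005402). In neither exon did the groups overlap. Mapk8, which encodes the kinase JNK1, has 2 neighbouring exons of 72 nt. The downstream one went from 54.97, 50.2 and 57.43 PSI in DMSO to 41.28 and 34.83 PSI (limma adjusted p = 0.02921, lost without DMSO A, DMSO C or either BRD4884 library). The upstream one was at 52.24, 53.6 and 47.86 PSI in DMSO and at 62.29 and 68.99 PSI with BRD4884, a difference that met the posterior rule but not limma (adjusted p = 0.05309). The sequences of the pairs of equal length, in Mapk8 and Tpm1, are shown to let the alternative forms be compared.
Mapk8 upstream exon, chr14:34203859-34203930, minus strand: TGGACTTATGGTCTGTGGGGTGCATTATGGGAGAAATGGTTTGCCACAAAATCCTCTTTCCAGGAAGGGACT
Mapk8 downstream exon, chr14:34203428-34203499, minus strand: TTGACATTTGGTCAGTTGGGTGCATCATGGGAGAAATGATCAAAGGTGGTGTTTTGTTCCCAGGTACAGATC
Tpm1 upstream exon, chr9:66880273-66880348, minus strand: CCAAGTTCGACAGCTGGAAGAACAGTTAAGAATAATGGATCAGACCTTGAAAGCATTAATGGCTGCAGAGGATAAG
Tpm1 downstream exon, chr9:66879758-66879833, minus strand: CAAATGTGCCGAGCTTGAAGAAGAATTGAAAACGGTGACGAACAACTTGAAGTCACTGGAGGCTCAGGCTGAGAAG

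Other cassette exons fell. Map4k4, a STE20 kinase related to Mink1, had a 225-nt exon at 51.66, 51.3 and 52.8 PSI in DMSO and 38.73 and 38.62 PSI with BRD4884 (limma adjusted p = 0.000534), with libraries of a group within 2 PSI. The splicing factor gene Mbnl1 has a 36-nt exon that was at 94.74, 90.06 and 89.07 PSI in DMSO and 81.53 and 75.58 PSI with BRD4884 (limma adjusted p = 0.02586, lost without DMSO A or either BRD4884 library). The ubiquitin ligase gene Ubox5 had 42.11, 42.1 and 44.62 PSI in DMSO and 18.2 and 23.82 PSI with BRD4884 (limma adjusted p = 0.0352, lost without any 1 library). In all of these genes the groups did not overlap. Alternative splice sites changed in 66 of 14149 acceptor (0.466%) and 79 of 10215 donor choices (0.773%). The alternative sites of a choice were counted together, not separately. The largest that passed limma was a donor choice in Itga7, a laminin receptor subunit, where the form longer by 223 nt went from 96.85, 95.1 and 96.26 PSI in DMSO to 48.3 and 57.33 PSI with BRD4884 (limma adjusted p = 0.000198).

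Introns were called more retained in 77 of 90482 (0.0851%) and less retained in 111 (0.123%). Only 20 and 44 of these passed the filters in all 5 libraries, and many of the others rest on 1 BRD4884 library. Among introns between 10 and 90 PSI in DMSO, 35 of 1934 rose (1.81%) and 110 fell (5.69%), with a median difference of -3.68 PSI. The number more retained was 241 without BRD4884 A, and the number less retained was 245 without DMSO A, so both depended on single libraries. No intron met the rule for named events, and those that follow were chosen after their values were seen. Dpp7, a peptidase of the lysosomal system, lost several introns, of which 1 of 92 nt had 41.38, 46.67 and 34.94 PSI in DMSO and 9.87 and 16.81 PSI with BRD4884 (limma adjusted p = 0.1485). The 119-nt exon of Dpp7 rose over the same libraries, from 68.07, 57.16 and 54.28 PSI to 94.41 and 86.81 PSI (limma adjusted p = 0.01701, lost without DMSO B, DMSO C or BRD4884 A). A 167-nt intron of Thap7, a zinc finger gene, went the other way, with 65.35, 52.83 and 58.44 PSI in DMSO and 77.73 and 80.13 PSI with BRD4884 (limma adjusted p = 0.3554).

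Gene expression changed in many genes. Of 10009 genes above 5 RPKM in either condition, 529 were over 2-fold higher with BRD4884 (5.29%) and 442 over 2-fold lower (4.42%), with no test because each condition has 1 merged value. The median ratio of all these genes was -0.27 on the log2 scale, with a pseudocount of 0.5 RPKM. Measured against that median, 787 were higher and 116 lower, which moves the share of lower genes from 45.5% to 12.8%. Junction reads per gene, the mean reads over the exon events of a gene scaled to all exon-event reads of the library and written as junction RPM, gave a value in each library. By limma 1708 of 10387 genes were over 2-fold higher (16.4%) and 82 over 2-fold lower (0.789%), and their median was 0.15. At the adjusted p alone 6204 genes changed (59.7%), of which 4109 rose (39.6%) and 2095 fell (20.2%). The measures thus differ in their zero by 0.31 on the log2 scale, over 8270 genes measured by both. Of 764 of these genes over 2-fold by RPKM, 761 had the same sign by junction reads and 751 also passed limma. A gene that was silent in DMSO entered the RPKM counts only through its level with BRD4884, so its rise is a condition of being counted. It entered the junction counts only through libraries of BRD4884 or of the other HDAC inhibitors.

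Most of the largest rises were genes with little or no RNA in DMSO. The glutathione S-transferase Gsta4, which conjugates lipid peroxidation products, went from 0.26 to 22.11 RPKM. Its junction reads were 0.01843, 0.06907 and 0.1176 RPM in DMSO and 6.824 and 6.465 RPM with BRD4884 (limma adjusted p = 1.6e-07). Fkbp14, a prolyl isomerase of the endoplasmic reticulum, went from 1.85 to 32.99 RPKM, with junction reads of 0.5034, 0.4992 and 0.8016 RPM in DMSO and 13.63 and 13.06 RPM with BRD4884 (4.39 ± 0.17 on the log2 scale, limma adjusted p = 2.1e-08). In both genes the levels with BRD4884 were over 10 times those in any DMSO library. S100a11, a calcium-binding protein, went from 1.17 to 79.06 RPKM. It was not found by name among the splicing events, so it had no test by junction reads. Fblim1, an adaptor of cell-matrix junctions, went from 0.46 to 15.76 RPKM, Spata20 from 0.44 to 19.32 RPKM, Adgrg1, an adhesion receptor, from 0.39 to 14.96 RPKM, and Rhd, an ammonium transporter homologue, from 0.76 to 21.05 RPKM. These genes were above 5 RPKM only with BRD4884 and were chosen for their ratio, so a test of them adds nothing to the choice. Mr1, an antigen-presenting molecule, Dner, a Notch ligand, Gstt1, Clec2i and Insl6 make up the rest of the 12. For genes near 0 in DMSO the size of the fold depends on the pseudocount, so levels are given instead.

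The largest falls were smaller in fold. Il23a, a subunit of interleukin 23, went from 38.80 to 9.44 RPKM, with junction reads of 24.18, 26.79 and 27.67 RPM in DMSO and 7.782 and 8.439 RPM with BRD4884 (-1.69 ± 0.14, limma adjusted p = 3.5e-06). Mthfd1l and Aldh1l2 are enzymes of the mitochondrial folate pathway. Mthfd1l went from 64.00 to 19.05 RPKM (junction reads -1.35 ± 0.07, limma adjusted p = 1.6e-07) and Aldh1l2 from 21.61 to 5.10 RPKM (-1.79 ± 0.13, limma adjusted p = 1.3e-06). Cdc6, which loads the replicative helicase, went from 23.22 to 6.78 RPKM, with 6.419, 7.257 and 5.745 junction RPM in DMSO and 1.819 and 2.234 with BRD4884 (limma adjusted p = 9e-06). In Il23a and Cdc6 the highest BRD4884 library was below the lowest DMSO library.

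Cell cycle and replication genes fell as a list. This list and those that follow were chosen with earlier results of these data known, so their shares are descriptive. Of 46 above 5 RPKM, 21 were over 2-fold lower and none higher, with a median log2 ratio of -0.95. Against the median of all genes 8 were over 2-fold lower, and the list median was -0.68. By junction reads 36 of 42 fell at the adjusted p (20.2% of all genes did), 7 of them over 2-fold, and none rose. The cyclin-dependent kinase Cdk4 had 121.7, 123.3 and 117.9 junction RPM in DMSO and 60.04 and 59.31 with BRD4884 (-1.02 ± 0.10, limma adjusted p = 1.2e-05). The helicase subunit Mcm5 had 38.01, 38.74 and 37.25 RPM in DMSO and 16.44 and 15.89 with BRD4884 (-1.23 ± 0.07, limma adjusted p = 2.5e-07), and the transcription factor Mybl2 changed by a log2 difference of -1.22 ± 0.08 (limma adjusted p = 8.2e-07). The proliferation marker Mki67 did not pass, at 18.2, 17.49 and 17.6 RPM in DMSO and 13.85 and 14.62 with BRD4884 (limma adjusted p = 0.14). Among CDK inhibitors and p53 targets, 1 of 13 genes above 5 RPKM was over 2-fold higher. By junction reads 3 of 13 tested passed over 2-fold higher, beside 16.4% of all genes, and the others were Fas, from 0.01 to 0.95 RPKM, and Trp53inp1, from 0.22 to 2.80 RPKM, both near 0 in DMSO. The gene above 5 RPKM was Cdkn1a, which encodes the CDK inhibitor p21, with 6.673, 6.802 and 6.225 junction RPM in DMSO and 26.92 and 29.78 with BRD4884 (2.1 ± 0.15, limma adjusted p = 1.2e-06). The list median was -0.01, and 0.25 once centred.

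Genes known to respond to HDAC inhibitors rose as a list. Of 11 above 5 RPKM, 4 were over 2-fold higher, and by junction reads 8 of 11 passed over 2-fold higher and none lower, beside 16.4% of all genes higher. The actin-severing protein gelsolin, Gsn, had 1.688, 1.879 and 1.811 junction RPM in DMSO and 20.06 and 18.25 with BRD4884 (3.38 ± 0.09, limma adjusted p = 4.3e-09). The extracellular chaperone clusterin, Clu, had 0.3873, 0.4719 and 0.3244 RPM in DMSO and 8.445 and 7.479 with BRD4884 (4.18 ± 0.13, limma adjusted p = 1e-08). Txnip, which binds thioredoxin, had 3.22, 2.863 and 3.527 RPM in DMSO and 14.59 and 14.63 with BRD4884. The groups were far apart in all 3 genes.

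Genes of glutathione and xenobiotic metabolism rose as a list, which was chosen with earlier results of these data known. Gsta4 (0.26 RPKM in DMSO) and Gstt1 (0.13 RPKM) were above 5 RPKM only with BRD4884, so their rise is a condition of being counted. Of 15 above 5 RPKM, 9 were over 2-fold higher and none lower, with a median log2 ratio of 1.12. By junction reads 13 of 16 rose at the adjusted p (39.6% of all genes did), 11 of them over 2-fold. The read minimum of this test was a mean over all the libraries fitted. Members near 0 in DMSO, such as Gsta4, Gstt1 and Mgst1, reached it only through treated libraries, so their tests add nothing to the rise of the list. Gstp1, an abundant transferase, had 56.24, 58.08 and 56.8 RPM in DMSO and 89.22 and 89.8 with BRD4884 (0.65 ± 0.15, limma adjusted p = 0.004). Gstt1 was at 0.02632, 0 and 0.1247 RPM in DMSO and at 5.698 and 4.819 with BRD4884. The microsomal transferase Mgst1 had 0, 0 and 0.01781 RPM in DMSO and 2.088 and 1.629 with BRD4884. Reads of close members of the Gst families may be split between copies, which makes single members uncertain.

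**Figure D3:**
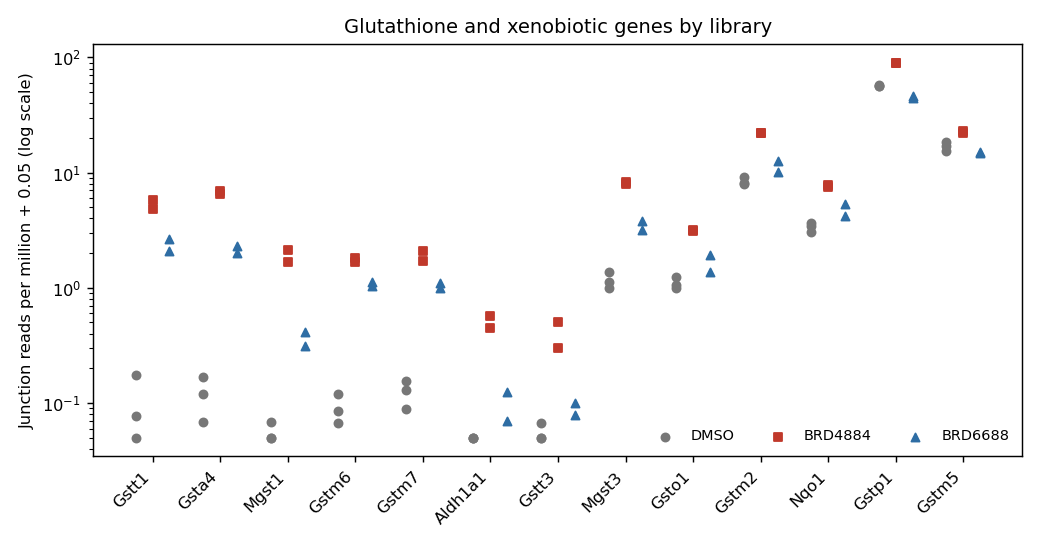
Junction RPM plus 0.05 (vertical axis, log scale) of the 13 glutathione and xenobiotic genes that passed the adjusted p, with 1 point per library of DMSO, BRD4884 and BRD6688. The genes were chosen for passing the test against DMSO, which favours groups that do not overlap, so the plot shows the size of the gap. Both BRD4884 libraries lie above all DMSO libraries in each gene, for example 89.22 and 89.8 against at most 58.08 for Gstp1.

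Neuronal and neuroendocrine genes moved mostly upward. Of 20 neuroblastoma lineage genes 9 passed over 2-fold higher by junction reads and none lower, beside 16.4% and 0.789% of all genes, and 17 rose at the adjusted p, beside 39.6% of all genes. Slc18a2, the vesicular monoamine transporter, had 6.069, 6.486 and 6.201 RPM in DMSO and 18.68 and 19.38 with BRD4884 (1.60 ± 0.07, limma adjusted p = 4.3e-08). Of 27 synaptic vesicle and release genes 20 rose at the adjusted p and 2 fell, and 6 rose over 2-fold, among them the synaptic vesicle protein Syp and the calcium sensor Syt7. Of 17 ion channel genes 6 passed over 2-fold higher, and the calcium channel subunit Cacnb3 had 2.357, 2.426 and 2.264 RPM in DMSO and 10.14 and 9.774 with BRD4884. In class I antigen presentation 10 of 13 passed over 2-fold higher and 1 over 2-fold lower. B2m, the light chain of class I molecules, had 64.8, 67.86 and 76.58 RPM in DMSO and 156.2 and 172.7 with BRD4884 (1.24 ± 0.21, limma adjusted p = 0.00057), whereas the immunoproteasome subunit Psmb10 had 6.807, 6.285 and 5.9 in DMSO and 2.62 and 2.722 with BRD4884.

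The remaining lists are given beside the shares of all genes that rose (39.6%) and fell (20.2%) at the adjusted p and that rose over 2-fold (16.4%). Of 17 immediate early and stress genes tested by junction reads 9 rose and 3 fell at the adjusted p, 4 rose over 2-fold, and their median by RPKM was -0.01, or 0.25 once centred. Of 19 sterol synthesis genes 3 rose and 4 fell, none over 2-fold, with a median of -0.25 that became 0.01 once centred. Of 16 neurofilament and axonal genes 11 rose and none fell, none over 2-fold. Only 3 histone genes had enough junction reads, of which 1 rose and 2 fell. Of 3 germline genes tested 2 rose and 1 fell at the adjusted p. Only 2 of the 8 C-type lectin genes had enough junction reads, and Clec2i, at 0.02 RPKM in DMSO and 9.16 RPKM with BRD4884, reached that minimum only through its level in treated cells.

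**Figure D4:**
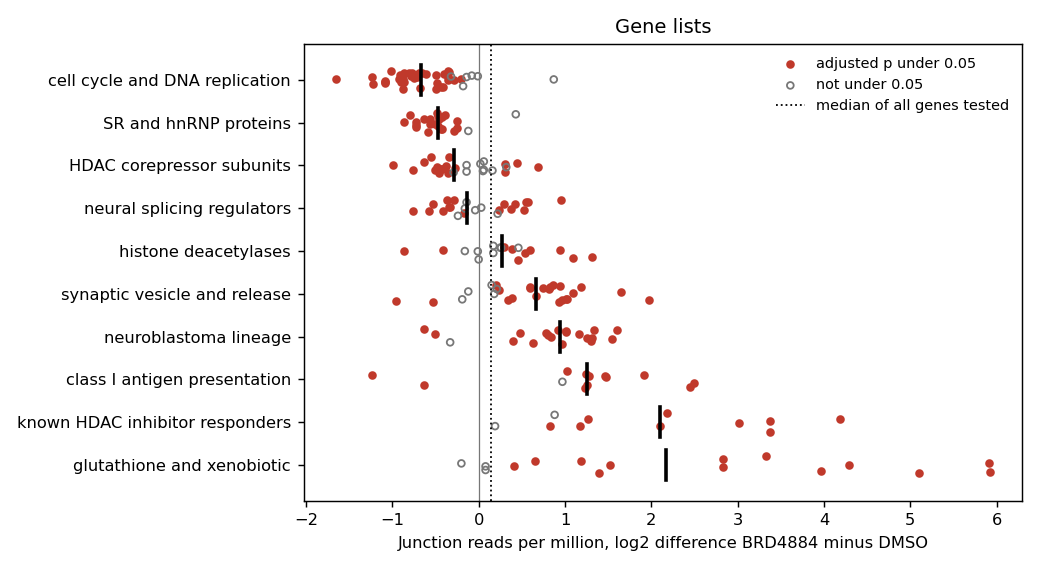
Log2 difference in junction RPM, BRD4884 minus DMSO (horizontal axis), of each tested gene of 10 lists, with filled points for an adjusted p under 0.05, a bar at each list median and a dotted line at the median of all genes, 0.15. Cell cycle genes lie furthest to the left, with a median of -0.67, and glutathione genes furthest to the right, with 2.17.

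The splicing regulators of neural exons changed by less than 2-fold. Srrm4, the activator of neural microexons, had 10.42 RPKM in DMSO and 11 RPKM with BRD4884, with 3.518, 3.322 and 3.347 junction RPM in DMSO and 3.893 and 4.02 with BRD4884. The BRD4884 libraries were slightly above DMSO, by 0.22 ± 0.15 on the log2 scale (limma adjusted p = 0.25), and the related Srrm3 differed by 0.03 ± 0.17 (limma adjusted p = 0.9). Of 23 such regulators tested 8 rose and 9 fell at the adjusted p, beside 39.6% and 20.2% of all genes, and none changed over 2-fold. Ptbp1, which represses neural exons, had 22.46, 25.36 and 23.05 RPM in DMSO and 17.83 and 17.78 with BRD4884 (-0.41 ± 0.07, limma adjusted p = 0.00069). Its paralogue Ptbp2 changed by a log2 difference of -0.76 ± 0.08 (limma adjusted p = 2e-05), and Mbnl2 by 0.95 ± 0.13 (limma adjusted p = 0.00012). SR and hnRNP proteins, the general regulators of exon choice, were lower as a list. Of 23 tested 21 fell at the adjusted p and none rose, beside 20.2% and 39.6% of all genes, with a median of -0.47 beside 0.15. Hnrnpd had 82.17, 76.23 and 79.46 RPM in DMSO and 42.13 and 44.39 with BRD4884 (-0.87 ± 0.11, limma adjusted p = 5.8e-05).

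Among the histone deacetylases themselves, Hdac2 was at 223.18 RPKM in DMSO and 217.06 RPKM with BRD4884, and Hdac1 at 64.06 and 74.97 RPKM. Of 18 deacetylase genes tested 8 rose and 2 fell at the adjusted p, a share of rises near the 39.6% of all genes that rose. The list median by RPKM was -0.07, and 0.20 once centred, so its direction depended on the scaling. Hdac11 had 2.416, 2.619 and 2.081 junction RPM in DMSO and 6.07 and 5.781 with BRD4884 (1.31 ± 0.12, limma adjusted p = 5.9e-06), whereas Hdac9 had 1.039, 1.041 and 1.058 in DMSO and 0.5386 and 0.5717 with BRD4884 (-0.86 ± 0.16, limma adjusted p = 0.00097). Subunits of the corepressor complexes were lower more often than higher, with 13 of 26 falling at the adjusted p and 4 rising, beside 20.2% and 39.6% of all genes. The largest fall was in the NuRD subunit Mbd3, with 21.14, 20.45 and 18.48 RPM in DMSO and 10.01 in each BRD4884 library (-0.99 ± 0.14, limma adjusted p = 0.00018).

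BRD4884 and BRD6688 were compared directly at their common dose and time, over 41118 splicing events and 10387 genes in 1 pair of compounds. No event passed limma in either direction (0%), and 2491 had an unadjusted p under 0.05 (6.06%). By the posterior rule 4 of 680 microexons were higher with BRD4884 (0.588%) and 3 lower (0.441%), and of 62062 cassette exons 207 were higher (0.334%) and 172 lower (0.277%). These results do not show that the compounds act alike. Over all 328 microexons tested, the 95% interval of the difference reached a median of 5.15 PSI to each side, and 63.4% of the intervals lay wholly within 10 PSI of 0. For the microexons called higher against DMSO the intervals were wider, with a median of 7.78 PSI to each side and 40.4% within 10 PSI, and 45 of 47 held 0. The exceptions were Mef2a (1.1 to 12.39) and Clasp2 (-31.17 to -0.54), named after their values were seen. Spna2 differed by 0.76 PSI (interval -1.77 to 3.29), Picalm by 0.94 PSI (-2.4 to 4.29), L1cam by -1.23 PSI (-5.66 to 3.2) and Ppfia2 by 11.5 PSI (-6.17 to 29.18). The intervals of Spna2, Picalm and L1cam exclude a difference as large as that against DMSO, while that of Ppfia2 is wide. The named exons were chosen for high values with BRD4884, which places their differences from BRD6688 on the high side.

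**Figure D5:**
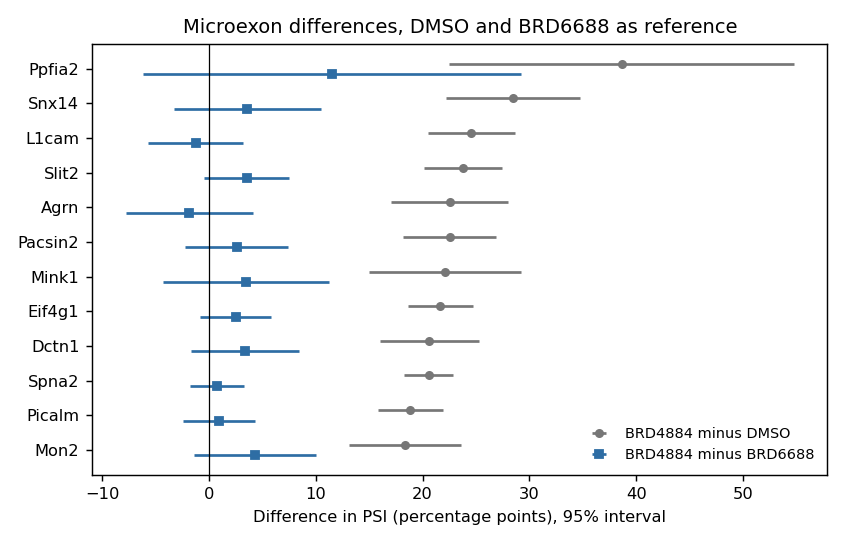
Difference in PSI (percentage points, horizontal axis) of the 12 named microexons, BRD4884 minus DMSO and BRD4884 minus BRD6688, with 95% intervals from limma on the PSI scale. The exons were chosen for passing the test against DMSO, and their intervals against BRD6688 all hold 0, the widest being -6.17 to 29.18 for Ppfia2.

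Of 11705 cassette exons tested, 10686 had an interval that held 0. The exons that follow had intervals away from 0, without adjustment for their number. Spag9 had 60.99 and 60.09 PSI with BRD6688 against 76.31 and 77.57 PSI with BRD4884, a difference of 16.38 PSI (interval 11.82 to 20.94, limma adjusted p = 0.2645). The 69-nt exon of Cask had 71.19 and 69.33 PSI with BRD6688, closer to DMSO than the 54.89 and 56.27 PSI with BRD4884. In both exons the libraries of the compounds did not overlap.

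Expression of some genes differed between the compounds. By junction reads 318 genes were over 2-fold higher with BRD4884 than with BRD6688 (3.06%) and 11 over 2-fold lower (0.106%), and 2909 passed the adjusted p alone (28%). The number at the adjusted p was far smaller when any 1 library of either compound was left out, which leaves 1 library in that group. The 28% is therefore not a stable share. The count of higher genes was 13 without BRD4884 A, 46 without BRD4884 B, 97 without BRD6688 A and 213 without BRD6688 B, so its size depended on each library. Glutathione genes held 5 of the higher genes among 16 tested. Gsta4 had 2.233 and 1.96 junction RPM with BRD6688, between DMSO and the 6.824 and 6.465 of BRD4884 (1.64 ± 0.34, limma adjusted p = 0.013), and Mgst1 had 0.2634 and 0.3649 against 2.088 and 1.629 (2.39 ± 0.32, limma adjusted p = 0.0052). Gstp1 had 44.29 and 46.12 RPM with BRD6688, against 89.22 and 89.8 RPM with BRD4884 (0.99 ± 0.17, limma adjusted p = 0.01). In this contrast Gsta4, Mgst1 and Gstp1 were not examined with a library left out. The largest differences were in genes near 0 with BRD6688, and the genes named here and in the next paragraph were chosen after their values were seen. Ramp3, a partner of calcitonin-type receptors, had 2.208 and 1.676 RPM with BRD4884 and 0.269 and 0.2442 with BRD6688 (limma adjusted p = 0.009), a call lost without BRD6688 A or either BRD4884 library. Acbd7, Dapl1 and Entpd2 had at most 0.07846 RPM with BRD6688 and at least 0.4954 with BRD4884.

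Genes lower with BRD4884 than with BRD6688 were few. Lpp, an adaptor of focal adhesions, had 0.5864 and 0.5824 RPM with BRD4884 and 1.505 and 1.416 with BRD6688 (-1.25 ± 0.22, limma adjusted p = 0.011, lost without BRD6688 A or either BRD4884 library). The haematopoietic transcription factor Tal1 had 0.3043 and 0.3096 with BRD4884 and 0.7566 and 0.943 with BRD6688 (-1.33 ± 0.38, limma adjusted p = 0.031), and lost the call without any 1 of these libraries. Srrm4 was also lower, with 3.893 and 4.02 RPM with BRD4884 and 6.62 and 6.762 with BRD6688 (-0.75 ± 0.17, limma adjusted p = 0.015), although under 2-fold. Mki67 had 13.85 and 14.62 with BRD4884 and 27.6 and 24.52 with BRD6688 (-0.87 ± 0.19, limma adjusted p = 0.015). In these genes the libraries of the compounds did not overlap. Srrm4 and Mki67 were not examined with a library left out, where most calls at the adjusted p did not hold.

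CI-994 was given at 5 µM and Vorinostat at 2.5 µM, so their values are set beside those of BRD4884 without a comparison. CI-994 had 52 microexons called higher and 6 lower than in DMSO, of 616 detected, and Vorinostat 46 and 14 of 610. Beside these were 48 and 5 of 628 for BRD4884 and 49 and 3 of 628 for BRD6688. All of these counts use the same DMSO libraries. L1cam had 73.79 and 70.47 PSI with CI-994 and 62.53 and 62.34 PSI with Vorinostat. Picalm had 56.06 and 58.66 PSI with CI-994 and 35.14 and 37.5 PSI with Vorinostat, the latter beside 52.71 and 50.78 PSI with BRD4884. Ppfia2 had 18.76 PSI in Vorinostat A and 48.61 PSI in Vorinostat B, so that 1 library lay within the DMSO range and the other near BRD4884. Introns were called more retained in 408 of 88526 with CI-994 and 248 of 88012 with Vorinostat. With BRD4884 it was 77 of 90482 and with BRD6688 89 of 90246. The BRD4884 count depended on single libraries, so these counts do not rank the compounds.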

How the data were processed

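PolyA+ RNA-seq libraries of N2A cells were analysed from 2 deposited tables. Inclusion levels, in percent (PSI), were deposited as the authors obtained them from vast-tools on mm9, with a quality string holding inclusion and exclusion reads of each event in each library, for 401633 events. Expression was deposited as RPKM, which the authors derived from Salmon quantification of GENCODE vM21 transcripts (Salmon 0.10.2 in the submitters' processing notes), 1 merged value per condition. Columns with the authors' own fold changes, p-values and change calls against DMSO were not used. The kit does not mark strand, so a gene and its antisense partner cannot be told apart. Doses came from the study's compound list. Conditions came from the labels, and 0 value columns lacked a sample.

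Events were kept by the coverage and balance filters of the study (introns needed 15 reads and a balance p over 0.05), in 1 of 2 libraries of a compound and 2 of 3 of DMSO. Calls used 2000 beta draws for each library, a mean difference of 10 PSI and a posterior over 0.95. limma 3.58.1 in R 4.3.3 was fitted to log2((inclusion + 0.5)/(exclusion + 0.5)) over 11 libraries (DMSO and 4 HDAC inhibitors), for events with at least 10 reads in each library and a mean of 1 to 99 PSI, with Benjamini-Hochberg adjustment, and to PSI for intervals. RPKM ratios used log2(RPKM + 0.5). Junction reads per gene, a measure added after seeing the data because no counts per library are used for genes, were averaged over the gene's exon events, for genes with a mean of at least 10 reads, as log2(RPM + 0.05), with the same kind of fit. Python 3.11.15, numpy 2.4.6, pandas 2.3.3 and scipy 1.17.1 were used, and the fits were tested on simulated data.

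Named events passed the filters in all 5 libraries, the posterior rule and limma, had groups that did not overlap, and were ranked by difference (12 microexons and 10 cassette exons higher, 8 cassette exons lower, 4 per class of splice site). Named genes were the 12 largest RPKM ratios in each direction above 5 RPKM. Members of the lists could be named whatever their change, and clone-named genes are not described. Some items are not reported here. Members, rules and gene lists were chosen with earlier results of these data known. Among exons between 10 and 90 PSI in DMSO, the SD over DMSO libraries had a median of 2.98 PSI for microexons and 3.28 PSI for cassette exons. Alternatives were 15 PSI, 20 reads, summed reads, other scales, pseudocounts and RPKM minima, centring, a replicate block and leaving out each library.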

Additional observations from a re-analysis of the deposited data

How the results depend on the processing

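The alternatives were run for the events and genes picked by the naming rules and for the genes that differed most from BRD6688. Their direction held in each run, with 0 reversed. List members and other events named in the text were not run, and small differences such as that of Srrm3 may change sign with centring. Of the values of single events 213 kept their side of the threshold and 102 lost it, and of single genes by junction reads 134 kept it and 28 lost it. With a minimum of 15 PSI, 31 microexons rose and 1 fell, 161 cassette exons rose and 49 fell, 70 introns were less retained and 85 alternative splice sites changed. Among microexons of up to 15 nt, 20 rose and 2 fell. With PSI from summed reads, 182 cassette exons fell, 211 introns were more and 294 less retained, and 369 alternative splice sites changed. Leaving out each library gave 54 to 57 microexons higher and 4 to 6 lower, 427 to 460 cassette exons higher and 144 to 238 lower, 88 to 241 introns more and 113 to 245 less retained, and 242 to 355 alternative splice sites changed. The limma counts against DMSO were 162 higher and 30 lower in the 2 groups alone, 30 lower on the PSI scale, and 51 to 71 higher and 6 to 12 lower without each library, fits with fewer samples. The replicate letters do not pair the samples (deviations of same-lettered libraries correlated by at most 0.03045 in size), and with the replicate letter as a block 60 events were higher and 10 lower, and 0 differed from BRD6688. By RPKM 1377 genes were higher with a minimum of 1 RPKM, 1681 higher and 682 lower with no minimum, and 116 lower after centring. By junction reads 190 genes were lower after centring. Against BRD6688, leaving out each library gave 13 to 213 genes higher and 0 to 2 lower. Except where the setting itself tests other genes or fewer samples, the cause was not tested. Depth limits the rarest exons: the limma test left out events with under 10 reads in a library.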
